A study of Rattus norvegicus with 6 samples.

Results

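The Rbpms, Elavl, Rbfox and Nova families of RNA-binding proteins, several of which serve as neuronal markers, were followed in cultured retinal ganglion cells (RGCs), whose axons form the optic nerve. The genes were chosen by family name and not by their values: Rbpms, Rbpms2, Elavl2, Elavl3, Elavl4, Rbfox1, Rbfox2, Rbfox3, Nova1 and Nova2. Of these 10 genes, 9 were found among the 17366 transcripts of the deposited table, and Nova2 was not analysed here. All 9 passed the filter on low values (1 FPKM or more in 3 libraries or more) and were tested with 10390 transcripts in all. FPKM counts fragments per kilobase of transcript, scaled to the size of the library, so levels can be set side by side between genes.

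The cultures came from Sprague Dawley rats of postnatal day 5 and were kept for 10 days. In the treated group, 3 cultures received Chrdl1 at 1 µg/ml for 12 h. Chrdl1 belongs to the chordin family of extracellular proteins and is known as an antagonist of bone morphogenetic proteins. In the control group, 3 cultures received the vehicle, 0.1% BSA with 4 mM HCl, for the same 12 h. Each title carries a 6-digit code, here called A, B or C, and each code holds 1 vehicle and 1 Chrdl1 library, called a pair. The meaning of the code is not given, nor is it stated that a group's libraries had separate animals as their source, so p-values measure only the spread between these libraries. The extraction protocol names visual cortex as the source, while the other labels name RGC cultures.

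These proteins act on RNA after transcription. Elavl2, Elavl3 and Elavl4 encode the neuronal Hu proteins HuB, HuC and HuD, which bind AU-rich and U-rich stretches of mRNA and are known to raise mRNA stability and to steer splicing. Rbfox1, Rbfox2 and Rbfox3 bind the hexamer UGCAUG and regulate alternative exons, and Rbfox3 is the NeuN antigen that marks most mature neurons. Nova1 binds clustered YCAY motifs and regulates the splicing of synaptic mRNAs. Rbpms and Rbpms2 share an RNA recognition motif domain that binds CAC motifs; Rbpms is a pan-RGC marker in the rodent retina and is also known from smooth muscle.

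Libraries sharing a code resembled each other and the codes stood apart, in markers of some other cell types above all. Total reads per library, recovered from the FPKM values, ran from 14546600 to 26551800. All 13 RGC markers of the list that are in the table were at 1 FPKM or more in every library, and their summed level ran from 3743 to 4997 FPKM. Summed markers of photoreceptors averaged 7.09, 5.62 and 102 FPKM in codes A, B and C, led by Gnat2 and Crx, and those of bipolar cells 17.7, 18.9 and 56.1 FPKM, with Prkca the highest. Müller glia and astrocyte markers averaged 101, 74.8 and 156 FPKM, led by Glul and Vim, with the defining astrocyte gene Gfap at no more than 1.24 FPKM. Lhx1, of the horizontal cell list, was at 0 in each library. Microglia and macrophage markers averaged 204, 17.2 and 255 FPKM, led by Tyrobp and C1qc, and mural and smooth muscle markers 204, 34.5 and 308 FPKM, led by Tagln and Acta2. Summed photoreceptor markers reached 99.3 FPKM in vehicle and 105 FPKM in Chrdl1 libraries, and those of microglia and macrophages ran from 22.4 to 268 and from 12.0 to 241 FPKM. The ranges of the groups overlapped for each of these lists.

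Rbpms was the most abundant of the genes on average and its relative Rbpms2 the least. Rbpms (NM_001271244, rn6 chromosome 16 from 61954590 to 62089579, plus strand, a transcript of 1051 bases) was at 86.9, 98.1 and 85.1 FPKM with vehicle in pairs A, B and C. It was at 85.3, 95.4 and 78.4 FPKM in the Chrdl1 libraries. Both libraries of code B were the highest and both of code C the lowest, and the groups overlapped. Rbpms2 (chromosome 8 from 71167305 to 71200291, plus strand, 1861 bases) was at 3.64, 2.88 and 2.79 FPKM in vehicle and 3.43, 3.22 and 3.60 FPKM in Chrdl1 libraries, from 78 to 166 reads. Within a library, Rbpms FPKM was 21.8 to 34.1 times that of Rbpms2. Rbpms lay between the 96.1 and 97.2 percentiles of all transcripts of a library, and Rbpms2 between the 46.5 and 51.8 percentiles.

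Among the neuronal Hu genes Elavl3 led in every library, ahead of Elavl4 and Elavl2. Elavl3 (chromosome 8 from 23030252 to 23063015, minus strand, 1592 bases) was at 91.9, 94.3 and 63.7 FPKM with vehicle in pairs A, B and C, and at 89.1, 99.8 and 70.0 FPKM in the Chrdl1 libraries. Elavl4 (chromosome 5 from 130001387 to 130085772, minus strand, 3864 bases) was at 42.9, 49.2 and 32.2 FPKM in vehicle and 43.4, 46.2 and 33.5 FPKM in Chrdl1 libraries. For both genes the libraries of code C were the low ones in each group, and the groups overlapped. Elavl2 (chromosome 5 from 109499411 to 109625799, minus strand, 4774 bases) was at 18.9, 25.2 and 18.0 FPKM in vehicle and 19.0, 21.3 and 18.0 FPKM in Chrdl1 libraries, with code B the high one.

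Elavl3 and Elavl4 followed each other over the 6 libraries, with a Pearson r of 0.97 on log2(FPKM + 1), given as a description because libraries share codes. Their promoters are shown because their levels moved together; both windows lie mostly upstream of the annotated start. They are RefSeq sequences of the build GRCr8, where 6 of the 9 genes had an entry, and capitals mark the GC box GGGCGG, searched on both strands.
Elavl3, chr8:28858964-28859263, minus strand: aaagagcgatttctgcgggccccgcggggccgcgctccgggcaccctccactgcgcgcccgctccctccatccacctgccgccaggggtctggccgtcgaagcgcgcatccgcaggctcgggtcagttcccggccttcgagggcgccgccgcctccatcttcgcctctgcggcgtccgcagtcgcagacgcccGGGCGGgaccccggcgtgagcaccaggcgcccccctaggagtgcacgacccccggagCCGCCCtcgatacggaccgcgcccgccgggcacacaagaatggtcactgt
Elavl4, chr5:130367614-130367913, minus strand: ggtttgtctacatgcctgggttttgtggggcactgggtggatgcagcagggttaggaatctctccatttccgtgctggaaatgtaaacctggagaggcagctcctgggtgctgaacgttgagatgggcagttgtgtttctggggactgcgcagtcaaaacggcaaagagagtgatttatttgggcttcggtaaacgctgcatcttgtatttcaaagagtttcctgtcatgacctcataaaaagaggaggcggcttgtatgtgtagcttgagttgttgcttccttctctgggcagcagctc
The Elavl3 promoter had a GC content of 74.3%, 42 CpG dinucleotides and 2 GC boxes, while that of Elavl4 had 50%, 7 and 0. Over all 33469 promoters of that length the medians were 51.7% and 7 CpG dinucleotides, and 33.1% held a GC box. The letters CCAAT and TATAAA, found on either strand in 37.5% and 14.2% of all promoters, were in neither of these windows.

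The 3 Rbfox genes lay closer together in level. Rbfox1 (chromosome 10 from 8312961 to 8654892, minus strand, 4138 bases) was at 41.3, 50.3 and 37.2 FPKM in vehicle and at 42.6, 51.2 and 35.5 FPKM in the Chrdl1 libraries. Rbfox2 (chromosome 7 from 118157094 to 118396728, minus strand, 1923 bases) was at 45.5, 40.7 and 26.4 FPKM in vehicle and 43.9, 40.2 and 31.6 FPKM in Chrdl1 libraries. Rbfox2 was highest in code A and Rbfox1 in code B, and both were lowest in code C. Rbfox3 (chromosome 10 from 107518744 to 107539465, minus strand, 1116 bases) was at 32.0, 27.6 and 21.8 FPKM in vehicle and 29.3, 32.7 and 21.3 FPKM in Chrdl1 libraries. Nova1 (chromosome 6 from 66963510 to 67085390, minus strand, 3509 bases) was at 21.7, 22.8 and 16.3 FPKM in vehicle and 22.1, 20.1 and 18.3 FPKM in Chrdl1 libraries. For both of these genes too the lowest library of each group was that of code C.

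In order of mean FPKM over the 6 libraries the genes were Rbpms (88.2), Elavl3 (84.8), Rbfox1 (43.0), Elavl4 (41.2), Rbfox2 (38.0), Rbfox3 (27.5), Nova1 (20.2), Elavl2 (20.1) and Rbpms2 (3.26). Ranges did not overlap between Elavl3 and Rbfox1 or between Elavl2 and Rbpms2, so the genes fell into a top pair, a middle 6 and Rbpms2. Rbpms and Elavl3 changed places between libraries, each leading in 3, and Nova1 and Elavl2 did likewise. Rbfox3 was in place 6 in each library. The order rests on 1 listed transcript per gene.

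**Figure D1:**
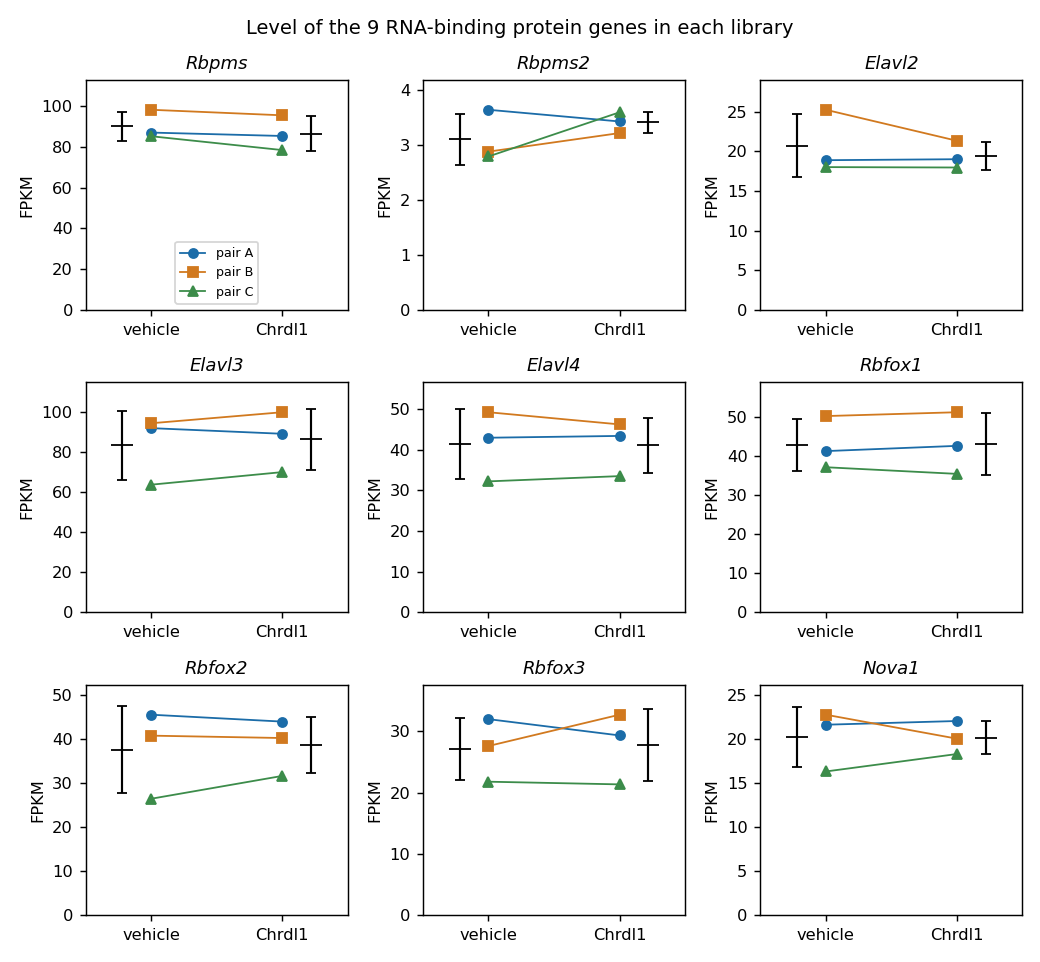
FPKM (vertical axes, each from 0) of the 9 genes in the vehicle and Chrdl1 libraries; coloured lines join the libraries of a pair, and black marks are the mean ± SD of 3 libraries. Pair C is the lowest line for 8 genes in both groups, and only Rbpms2 departs from this.

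Whether added Chrdl1 alters these mRNAs within 12 h was asked by setting the treated against the vehicle libraries. None of the 9 genes passed the threshold of limma, an adjusted p under 0.05 over all tested transcripts, where 0 of 10390 transcripts did, or 0%. At an unadjusted p under 0.05 there were 0 of the 9 genes and 18 transcripts, or 0.173%. This fit counts the differences between title codes as spread, which makes small changes hard to call. With the title code as a block, limma had 5.15% of transcripts and 0 of the 9 genes at such a p. Limma voom on the recovered reads also called 0 transcripts, with 2 at an unadjusted p under 0.05 and 0 of the 9 genes among them. In limma without a block the smallest unadjusted p among the genes was 0.495, for Rbpms2.

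Fold changes are Chrdl1 minus vehicle on the log2(FPKM + 1) scale. Rbpms averaged 90.1 ± 7.03 FPKM (SD, n = 3) in vehicle and 86.3 ± 8.57 in Chrdl1 libraries, which gave a log2 fold change of -0.062 ± 0.11 (SE; 95% interval -0.32 to 0.19). Rbpms2 averaged 3.11 ± 0.467 and 3.42 ± 0.189 FPKM, which gave 0.11 ± 0.15 (95% interval -0.25 to 0.47). These were the values of the pan-RGC marker and its relative, and neither difference exceeded the spread between libraries, that between title codes included.

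Elavl2 averaged 20.7 ± 3.94 FPKM in vehicle and 19.4 ± 1.72 in Chrdl1 libraries, a log2 fold change of -0.076 ± 0.15. Elavl3 averaged 83.3 ± 17.0 and 86.3 ± 15.1 FPKM, a log2 fold change of 0.057 ± 0.19. Elavl4 averaged 41.4 ± 8.59 and 41.0 ± 6.67 FPKM, a log2 fold change of -0.0063 ± 0.18. The Hu genes thus had no common sign.

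Rbfox1 averaged 42.9 ± 6.69 FPKM in vehicle and 43.1 ± 7.90 in Chrdl1 libraries, a log2 fold change of 0.0022 ± 0.16. Rbfox2 averaged 37.5 ± 9.94 and 38.6 ± 6.33 FPKM, a log2 fold change of 0.061 ± 0.22, and Rbfox3 averaged 27.1 ± 5.13 and 27.8 ± 5.85 FPKM, with 0.029 ± 0.19. Nova1, the splicing factor, averaged 20.3 ± 3.45 and 20.2 ± 1.88 FPKM, a log2 fold change of 0.0025 ± 0.15. In each of these genes the SD within a group was larger than the difference between the group means. That SD includes the differences between title codes, which took 98.4%, 92.7%, 89.3% and 81.8% of the variance of Rbfox1, Rbfox2, Rbfox3 and Nova1.

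The fold change was above 0 in 6 of the 9 genes and below 0 in 3, where 38.4% of tested transcripts were positive. The median was 0.0025, beside -0.028 over all tested transcripts. Rbpms was lower with Chrdl1 in all 3 pairs, by log2 differences of -0.028, -0.040 and -0.12, as were 19.5% of tested transcripts. None of the 9 was higher in all 3 pairs, as 7.55% of transcripts were, and none had groups that did not overlap, as 2.44% did. The limits of the 95% intervals reached at most 0.58 on the log2 scale, a 1.49-fold change, for Rbfox2, and 0.36, a 1.28-fold change, for Rbpms2 with the title code as a replicate block. With the block 0 of the 9 were at an unadjusted p under 0.05, as 5.15% of transcripts were, and the smallest among the genes was 0.329, for Rbpms. In pair C fold change went with transcript length over all tested transcripts, at a rank correlation of 0.39 against 0.028 and 0.026 in pairs A and B. With that trend removed limma again called 0 of the 9, and the log2 fold change of Rbpms went from -0.062 to -0.0082.

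**Figure D2:**
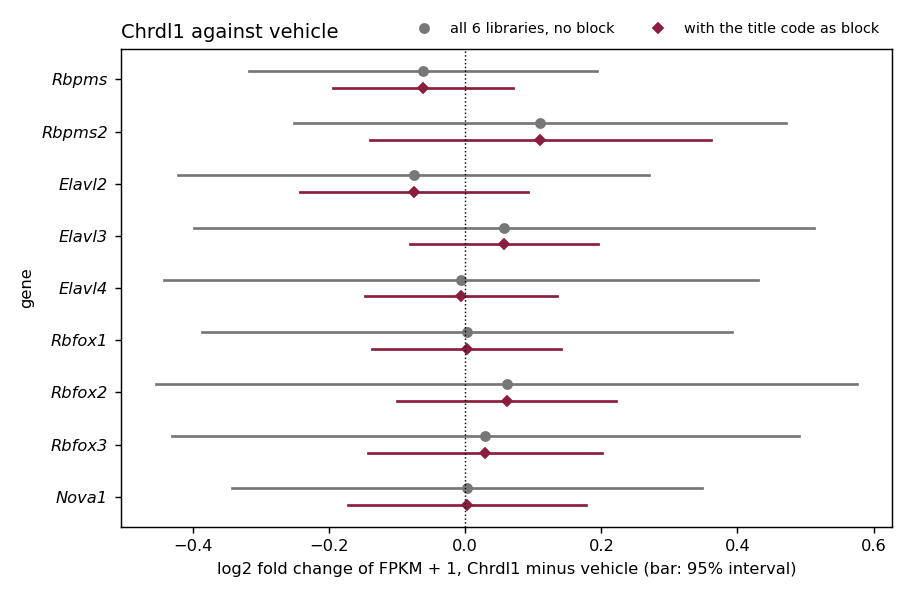
Log2 fold change of FPKM + 1, Chrdl1 minus vehicle (horizontal axis), of the 9 genes, with 95% intervals from limma without a block (grey circles) and with the title code as block (red diamonds), n = 3 libraries a group. Every interval includes 0, and the block shortens them from a median halfwidth of 0.39 to 0.16.

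The share of each member in the summed FPKM of its family does not depend on how a library is scaled, and 7 such shares were compared by exact permutation tests, two-sided, whose smallest possible p is 0.1 with 3 libraries against 3. Rbpms made up 96.7% ± 0.604 (SD, n = 3) of Rbpms and Rbpms2 in vehicle and 96.2% ± 0.563 in Chrdl1 libraries (exact permutation p = 0.4). Elavl3 made up 57.2% ± 2.24 of the neuronal Hu FPKM in vehicle and 58.7% ± 1.02 in Chrdl1 libraries (exact p = 0.4). Elavl4 was at 28.5% ± 0.630 and 27.9% ± 0.600 (exact p = 0.5) and Elavl2 at 14.3% ± 1.84 and 13.4% ± 1.24 (exact p = 0.6). Over the 6 libraries the Elavl3 share ran from 55.9% to 59.8%, and the groups overlapped for each Hu gene.

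Rbfox1 made up 40.2% ± 4.77 of the Rbfox FPKM in vehicle and 39.4% ± 2.33 in Chrdl1 libraries (exact p = 0.7). Rbfox2 was at 34.5% ± 3.69 and 35.3% ± 2.79 (exact p = 0.8), and Rbfox3 at 25.2% ± 1.85 and 25.3% ± 1.11 (exact p = 1). The Benjamini-Hochberg adjusted values over the 7 shares were 0.933 for 6 of them and 1 for Rbfox3. The Rbfox make-up varied with the code: Rbfox1 averaged 35.8% in code A against 41.8% in both other codes, and Rbfox2 averaged 38.1% in code A against 33.4% and 33.3% in codes B and C. The Rbfox2 share was lower with Chrdl1 in pairs A and B, by -0.399 and -1.97 percentage points, and higher in pair C.

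**Figure D3:**
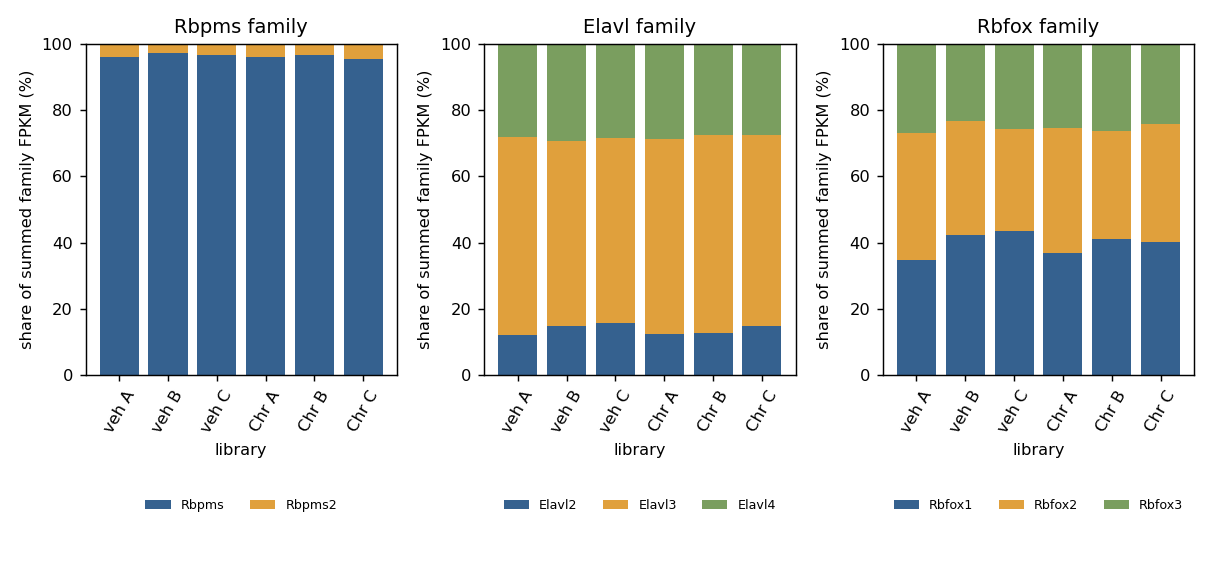
Share of each gene in the summed FPKM of its family (vertical axis, percent) in the 6 libraries (horizontal axis: veh, vehicle; Chr, Chrdl1; A, B and C, the pairs). Rbpms and Elavl3 lead their families in every library, and the Rbfox1 share is lowest in the libraries of pair A.

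The genes varied between title codes far more than with treatment, and mostly in one direction. In 8 of the 9 genes, all except Rbpms2, both libraries of code C lay below the other 4, as 14.7% of tested transcripts did. In a limma F test of the code, with treatment in the fit, the same 8 passed an adjusted p under 0.05, as 47.4% of tested transcripts did, so passing alone is not particular to them. The code took a median of 89.3% of the variance of the 9 genes on log2(FPKM + 1), beside 80.2% over all tested transcripts. The 2 libraries of a code are its only replicates.

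The drop in code C was largest in Rbfox2, Rbfox3, Elavl3 and Elavl4. Code C averaged 31.9% below the mean of codes A and B in Rbfox2, 29.1% in Rbfox3, 28.7% in Elavl3 and 27.7% in Elavl4. Their limma adjusted p for the code were 0.000400, 0.00205, 0.000334 and 0.000547. Rbfox1 was 21.7% lower, with an adjusted p of 0.00129, and these 5 genes passed in each of the 14 alternative fits.

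Nova1 was 20.0% lower in code C, Elavl2 14.8% and Rbpms 10.6%, with adjusted p of 0.0286, 0.0187 and 0.0433 from the same limma fit. These 3 calls were less stable. They were lost without a filter on low values, with adjusted p of 0.0839, 0.0577 and 0.0630, and without the vehicle library of pair A, with 0.0759, 0.0515 and 0.163. Rbpms also lost its call without the vehicle library of pair B (0.253) or the Chrdl1 library of pair A (0.155) or B (0.345). Elavl2 lost it without the vehicle library of pair B (0.316), and Nova1 without the pair C vehicle library (0.226) or the Chrdl1 library from pair A (0.0987). Rbpms2 averaged 3.54, 3.05 and 3.20 FPKM in codes A, B and C and did not pass (adjusted p = 0.570).

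In the single contrasts of that fit, all 8 genes were called lower in code C than in code B, as 11.7% of transcripts were. The median over the 9 genes was -0.46 on the log2 scale, beside 0.030 over all tested transcripts. Against code A, 5 were called lower, namely Elavl3, Elavl4, Rbfox2, Rbfox3 and Nova1, as 9.94% of transcripts were. None of the 9 was called higher in code C than in code A, as 21% of transcripts were, or than in code B, as 20.2% were. Code B exceeded code A in 2 genes, Elavl2 by 0.28 ± 0.095 (SE, log2; limma adjusted p = 0.0421) and Rbfox1 by 0.27 ± 0.078 (limma adjusted p = 0.0220), as 14% of transcripts did. Rbpms, Elavl2, Elavl3, Elavl4 and Rbfox1 had both libraries of code B above the other 4, as 17.8% of transcripts did.

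The low levels in code C held under other scalings, chosen after the data were seen, except for Rbpms. After quantile normalization 8 of the 9 genes again had both code C libraries lowest, with Rbpms2 in place of Rbpms, where 26.0% of transcripts did. After median centring, and after removal of the length trend, the 8 genes were as before, beside 23.6% and 28.7% of transcripts. With voom values of the recovered reads 7 did, without Rbpms, beside 13.9%. All 9 genes had a lower mean in code C than in the other libraries under each of these scalings.

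Markers of several other cell types, though not of all, were higher in code C. In code C summed photoreceptor markers were 16.1 times the mean of the other codes, with 6 of 9 markers highest in both code C libraries. Bipolar markers were at 3.06 times (5 of 8 markers), mural and smooth muscle markers at 2.59 times (6 of 8), microglia and macrophage markers at 2.30 times (4 of 10) and Müller glia and astrocyte markers at 1.78 times (7 of 9). For the mural and microglia lists, low levels in code B pulled down the mean of the other codes. Mural and smooth muscle markers averaged 204, 34.5 and 308 FPKM in codes A, B and C, and microglia and macrophage markers 204, 17.2 and 255 FPKM. Both lists were thus high in code A too, and their rise was not particular to code C. Summed RGC markers in code C were at 0.889 times the mean of the other codes, with 5 of 13 lowest and 1 highest in both code C libraries. This sum, led by Sncg and Stmn2, averaged 3990 FPKM in code C, 3988 in code B and 4985 in code A. It was thus below code A and level with code B, but single RGC markers differed from it. Pou4f2 averaged 28.5, 37.0 and 25.9 FPKM in codes A, B and C, and Slc17a6 averaged 243, 285 and 230 FPKM. Thy1 went the other way between codes B and C, at 202, 143 and 258 FPKM in codes A, B and C. Summed amacrine markers were at 1.07 times, a sum led by Pax6 and Gad2, while 8 of 13 were highest and 0 lowest in both code C libraries. The part of these cells in the lower Hu, Rbfox and Nova1 levels was not tested, and in bulk RNA fewer neurons and less of an mRNA per neuron cannot be told apart. Code B, where microglia and mural markers were at 0.0844 and 0.170 times their code A level, held the highest Rbpms, Elavl2, Elavl3, Elavl4 and Rbfox1. Of these, limma called only Elavl2 and Rbfox1 higher in code B than in code A. Rbfox2, Rbfox3, Nova1 and Rbpms2 averaged 44.7, 30.7, 21.9 and 3.54 FPKM in code A against 40.4, 30.2, 21.4 and 3.05 in code B. Any link of these levels to the microglia and mural markers was not tested.

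**Figure D4:**
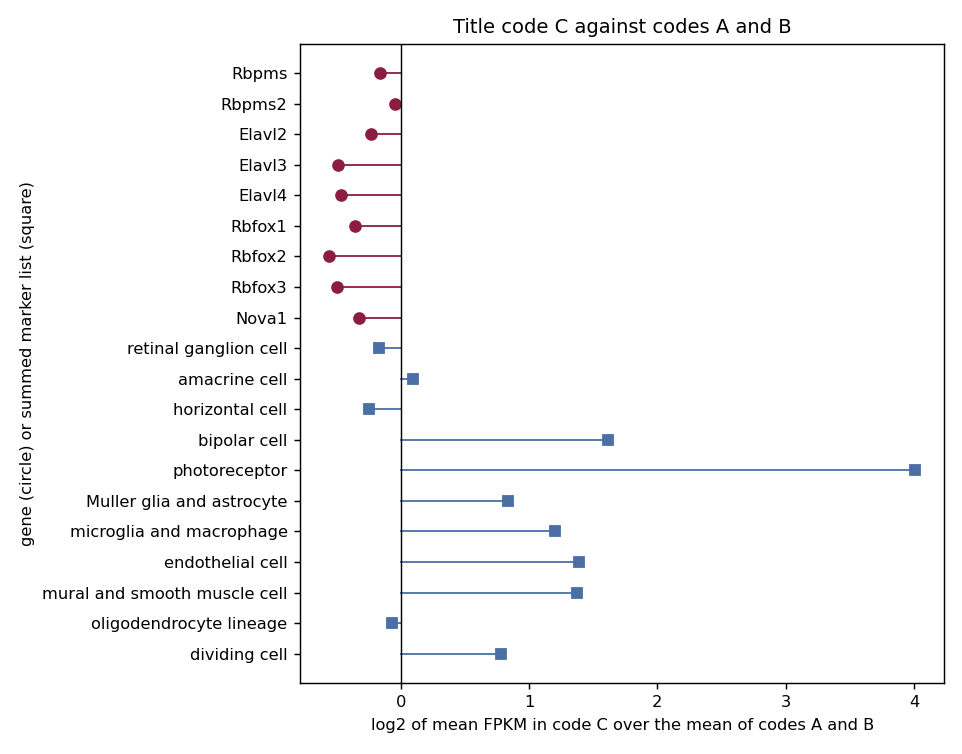
Log2 ratio of mean FPKM in the 2 libraries of code C over the mean of codes A and B (horizontal axis) for the 9 genes (red circles) and for summed marker lists (blue squares). The genes lie between -0.56 and -0.044, and the photoreceptor list lies at 4.01.

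Elavl1 and Ptbp1 were highest in both code C libraries, as 23.4% of tested transcripts and 0 of the 9 genes were. Elavl1, the broadly expressed Hu protein HuR, averaged 8.14, 9.64 and 11.6 FPKM in codes A, B and C (limma adjusted p of the code 0.0130). It was at 0.0855 to 0.103 times the Elavl3 level in codes A and B, and at 0.170 and 0.176 times in code C. Ptbp1, a splicing repressor that is switched off as neurons form, averaged 6.79, 5.84 and 10.8 FPKM (limma adjusted p 0.000271). Its neuronal counterpart Ptbp2 averaged 39.2, 37.9 and 42.5 FPKM; it too was highest in both code C libraries but did not pass (limma adjusted p 0.25). Ptbp2 FPKM was therefore 5.62 to 6.79 times that of Ptbp1 in codes A and B and 3.76 to 4.11 times in code C.

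Other RNA-binding proteins, listed by role, did not respond to Chrdl1 past the threshold. Of 18 splicing regulators outside the families, 16 were in the table and 15 tested, and limma called 0 higher and 0 lower. They had 8 positive and 7 negative log2 fold changes, where 38.4% of all tested transcripts were positive. Their median was 0.025 (0.0027 to 0.057 on leaving out libraries). The most abundant were Celf4, at 93.0 FPKM on average, Khdrbs1 at 56.3 and Ptbp2 at 39.9, and the least Mbnl3 at 0.145 and Ptbp3 at 5.28 FPKM. Celf4 encodes a brain-enriched CELF protein that binds neuronal mRNAs, and Khdrbs1 encodes Sam68. With the block 1 of the 15, Celf5, was at an unadjusted p under 0.05, as 5.15% of tested transcripts were. Celf5 had a log2 fold change of 0.18 and a limma adjusted p of 0.872.

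Of 32 factors of mRNA transport, stability and translation, 28 were in the table and 26 tested, and limma called 0 in either direction. There were 13 positive and 13 negative fold changes, beside 38.4% positive over all tested transcripts. The median of these factors was -0.0010 (-0.037 to 0.037 on leaving out libraries). Pabpc1, the poly(A)-binding protein, was highest at 96.7 FPKM, ahead of Caprin1 at 78.7 and the dendritic transport factor Stau2 at 63.5 FPKM. Zfp36l2 and Igf2bp1 were lowest at 0.0353 and 0.476 FPKM. None of the 15 or 26 genes was at an unadjusted p under 0.05 without the block. Both code C libraries were lowest for 4 and highest for 5 of the 15 splicing regulators, and lowest for 3 and highest for 11 of the 26 others, beside 14.7% lowest and 23.4% highest over all tested transcripts. The 11 included Elavl1 and Msi1, the latter at 14.7, 14.6 and 36.4 FPKM in codes A, B and C. Which cells the Msi1 mRNA came from was not tested.

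The transcripts whose pattern over the 6 libraries was most like the leading member of each family were named by the highest Pearson r of log2(FPKM + 1). For Rbpms they were Plat, Sdc1 and Fam60a, all above 0.99. For Elavl3 they were Kif5a, a neuronal kinesin heavy chain gene at 252 FPKM, Tmod2 and Sgtb. For Rbfox1 they were Tmem196, Arhgef18 and Slitrk1, and for Nova1 Prepl, Prokr2 and Insig1. Between 283 and 478 tested transcripts exceeded an r of 0.9 with each of these members, where the points are only 3 codes of 2 libraries each. Among the 9 genes themselves, Rbpms went with Rbfox1 (r = 0.94) and Elavl2 (0.90), and Rbfox2 with Nova1 (0.94) and Elavl3 (0.91), while Rbpms2 had at most 0.46 with any other.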

How the data were processed

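RNA from 3 vehicle and 3 Chrdl1 libraries was measured by sequencing of stranded mRNA libraries, per the labels' protocols. Per the submitters' processing notes, the build was rn6, and HOMER 4.8.3, STAR 2.4.0k and FastQC were used. The authors deposited FPKM values with transcript lengths, 1 transcript per gene symbol; how reads were filtered and the strand setting were not given in the sources used here. Reads were recovered from FPKM, length and the value of 1 read in Python 3.11.15: each value whose rounding spans under 0.25 reads was whole within that rounding plus 0.01 reads, where 5.74% to 8.74% would be by chance.

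Limma 3.58.1 in R 4.3.3 (lmFit, eBayes with trend, two-sided) was run on log2(FPKM + 1) over 10390 transcripts at 1 FPKM or more in 3 libraries or more, with Benjamini-Hochberg adjustment. On simulated data the treatment fit without a block missed the small planted changes; the fit with the block recovered more of them. Treatment was the only term; the title code was a block in an alternative and the tested term in a second fit. Deviations from group means correlated within codes A, B and C at 0.82, 0.86 and 0.84, so the title codes were taken to pair the libraries. Genes named from lists were the 3 highest and 2 lowest in mean FPKM, any past the threshold, and Elavl1, Ptbp1 and Ptbp2; Celf5 and Msi1 were added after their values were seen. Cell type lists are named by their 2 highest members, and Pou4f2, Slc17a6 and Thy1 were added after their values were seen. Some genes that these rules name are not reported here. The genes and lists were chosen with earlier results of these data known.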

Additional observations from a re-analysis of the deposited data

How the results depend on the processing

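No alternative gave a call for Chrdl1 against vehicle among the 9 genes or among all tested transcripts: 0 were called under each of the 11 other settings and 9 fits without libraries. The replicate block left the fold changes as they were and called 0. The fold change of Elavl4 turned to 0.029 with quantile normalization, 0.0099 with median centring, 0.023 with voom and 0.019 with voom and the block. Without 1 library or 1 pair, which leaves codes unequal between groups in the first case, the log2 fold change ran from -0.14 to 0.0048 for Rbpms, 0.026 to 0.20 for Rbpms2, -0.16 to 0.068 for Elavl2, -0.12 to 0.20 for Elavl3, -0.17 to 0.13 for Elavl4, -0.13 to 0.13 for Rbfox1, -0.17 to 0.21 for Rbfox2, -0.11 to 0.20 for Rbfox3 and -0.14 to 0.092 for Nova1. Rbpms2 has no value at the filter of FPKM 5.

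Share differences, in percentage points, ran from -0.826 to -0.128 for Rbpms, -2.02 to -0.258 for Elavl2, 0.368 to 2.79 for Elavl3, -1.11 to 0.0103 for Elavl4, -3.57 to 0.825 for Rbfox1, -1.19 to 2.70 for Rbfox2 and -1.50 to 0.874 for Rbfox3 on leaving out libraries. They kept their sign as shares of recovered reads and under the block (sign flips within pairs), where 3 pairs can give no p under 0.25.

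The code test called 4930 transcripts and 8 of the 9 genes. Without 1 library it called 3148 to 5581 transcripts and 5 to 8 genes, with 3148 without the Chrdl1 library of pair A and 5 genes without the vehicle library of pair A. Without a filter it called 5 genes. The cause was not tested. Rbpms2, at 78 reads in the shallowest library, is the gene limited most by depth.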

Other observations

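The mRNAs on which these proteins are known to act were measured as total levels, which say nothing of splicing. Of 12 mRNAs known to be bound by neuronal Hu proteins, all 12 were tested, and limma called 0 for Chrdl1 against vehicle. They had 2 positive and 10 negative fold changes, where 38.4% of all tested transcripts were positive. Their median was -0.076, beside -0.028 over all tested transcripts. That median was -0.0077 without the vehicle library of pair A, -0.024 without that of pair B, -0.035 without the Chrdl1 library of pair C, and -0.0076 with quantile normalization, and it ran down to -0.091 without pair B. The most abundant were Actb at 902 FPKM on average, Gap43, a growth cone protein gene, at 648 FPKM, and Map1b at 255 FPKM. The least abundant were Myc at 3.99 and Mycn at 7.79 FPKM. With the replicate block 1 of the 12, Cdkn1a, was at an unadjusted p under 0.05, as 5.15% of tested transcripts were. Cdkn1a, named after its values were seen, had a log2 fold change of -0.16 and a limma adjusted p of 0.872.

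Of 10 mRNAs known to be spliced by Nova, 8 were tested and 0 called. They had 5 positive and 3 negative values, beside 38.4% positive over all tested transcripts, and a median of 0.038. Leaving out libraries moved it from -0.019, without the vehicle library of pair C, to 0.094, without the Chrdl1 library of pair C, and it was also below 0, at -0.0052, without the Chrdl1 library of pair B. Epb41l1 was highest at 45.8 FPKM, Agrn, encoding agrin, was at 27.1 FPKM, and Glra2 and Kcnj6 were lowest at 1.39 and 4.4 FPKM. Of 12 mRNAs known to be spliced or bound by Rbfox, 11 were tested and 0 called, with a median of 0.072 from 8 positive and 3 negative values. This median was -0.060 without the vehicle library of pair C and 0.21 without that of pair B, so no direction can be read from either list. Snap25, a synaptic SNARE gene, was highest at 351 FPKM, followed by Grin1 at 76.1 FPKM, with the calcium channel genes Cacna1c and Cacna1d lowest at 3.54 FPKM each. In title code C, where the Hu, Rbfox and Nova1 mRNAs were low, both libraries were lowest for 4 of 12 Hu, 3 of 8 Nova and 4 of 11 Rbfox mRNAs, beside 14.7% of tested transcripts, and highest for 1, 0 and 1, beside 23.4%. Of the RGC marker list, 5 of 13 were lowest and 1 highest in both code C libraries, so low levels there are not particular to these mRNAs. Any link to the low Hu, Rbfox and Nova1 levels was not tested.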
